A study of Mus musculus with 2 samples.

Results

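Replication of DNA in S phase is carried out by a conserved set of proteins, and 46 of their genes are described here in regulatory T (Treg) cells. The genes were taken as every non-control probe whose gene name in the scanner files was on a fixed list covering origin licensing, the replicative helicase, polymerases, clamp loading, nucleotide supply and entry into S phase. All 46 had a probe, and together they had 63 of the 55676 usable probes, against 34817 gene names on the array in all. The scanner software called 45 of the 46 genes well above background for both genotypes, and those are the measured genes. The exception was Ccne2.

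The study measured total RNA on 1-colour Agilent mouse arrays. It had 1 array of Treg cells from 5-week-old Nr4a-TKO mice and 1 array of Treg cells from 5-week-old wild-type mice. Cells of both genotypes went straight from the sorter into lysis solution. The labels give no treatment, and they leave unsaid which alleles the name Nr4a-TKO stands for, how many mice were pooled, their sex and the sort gate. With 1 array per genotype there is no replicate check. Every difference below lies between those arrays, and no p-value was computed.

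Origins are licensed in G1, when ORC, Cdc6 and Cdt1 load the Mcm2 to Mcm7 helicase ring onto DNA. In S phase GINS and Mcm10 help to activate the ring, polymerase alpha with primase starts each new strand, and polymerases epsilon and delta extend it on the sliding clamp PCNA. E2F transcription factors and cyclin E drive many genes of this set at the G1/S boundary. T cells that leave rest turn these genes on, and the genes of mitosis follow later in the same cycle.

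Replication genes differed little between Nr4a-TKO and wild-type Treg cells. Levels are log2 signals after the 75th percentile of each array was set to 0, and differences are Nr4a-TKO minus wild-type. The 45 measured genes lay between -0.33 (Mcm3) and 0.47 (Rrm2), with a median of 0.11 and an SD across genes of 0.18. At the brightest probe of each gene none reached 1.5-fold, while a second Mcm3 probe, described below, did, with a difference of 0.61. Counts past 1.5-fold were thus 0 of 45 in the higher direction and 0 of 45 in the lower one, against 8.37% and 7.37% of the 23416 gene names measured on both arrays. At 2-fold the counts were 0 and 0, against 3.15% and 3.06%. Among the 10217 gene names in the signal range of the replication genes, a comparison added after seeing the data, 6.76% were past 1.5-fold higher and 5.51% past 1.5-fold lower, and 2.2% and 2.24% were past 2-fold. The SD of those gene names was 0.48, against 0.56 over all gene names. That range only spans the dimmest to the brightest replication gene, so signal was not matched within it.

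By any amount, 33 of the 45 were higher and 12 lower, while 59.6% of all gene names were higher and 40.4% lower. That split turned with the scaling, since 17 were higher with housekeeping genes as the centre, 7 with spike-ins as the centre and 18 with quantile or loess normalization. The median over all gene names was 0.08. The replication median minus that median was 0.03, which became -0.0020 with normexp background correction, -0.033 with loess and -0.061 with quantile normalization. Over the gene names in the signal range of the replication genes the median was 0.11, as was the replication median. No direction of the set as a whole is therefore given. Of single genes, 15 of the 45 kept their sign in all 16 settings. Most centrings and normalizations moved values down, with a shift of -0.27 for spike-ins and -0.13 for housekeeping genes. A gene already lower could thus hardly change sign, so the count says little where a difference is negative. The scanner software's own spot errors, combined for a difference, came to 0.20 for these genes. This error was nearly the same for every measured gene at its brightest probe, from 0.204 to 0.205. It thus served as a near-constant cutoff and says little about how noise differed between genes. By that measure 33 of 45 (73.3%) lay within the error, against 48.6% of all gene names, while 8 were higher and 4 lower by more. That split, and every later comparison with the scanner's error, holds for the reported scaling only. With spike-ins as the centre the highest gene stood at 0.19, so no gene was higher by more than the error. Further genes were then lower by more, such as Fen1 at -0.37. With housekeeping genes as the centre, of the 8 only Rrm2, Tk1, Mcm10 and Rfc5 stayed higher by more. The spread between repeat spots of a probe was smaller than the scanner's error, at 0.082 for a difference. Neither measure holds any variation between mice.

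**Figure D1:**
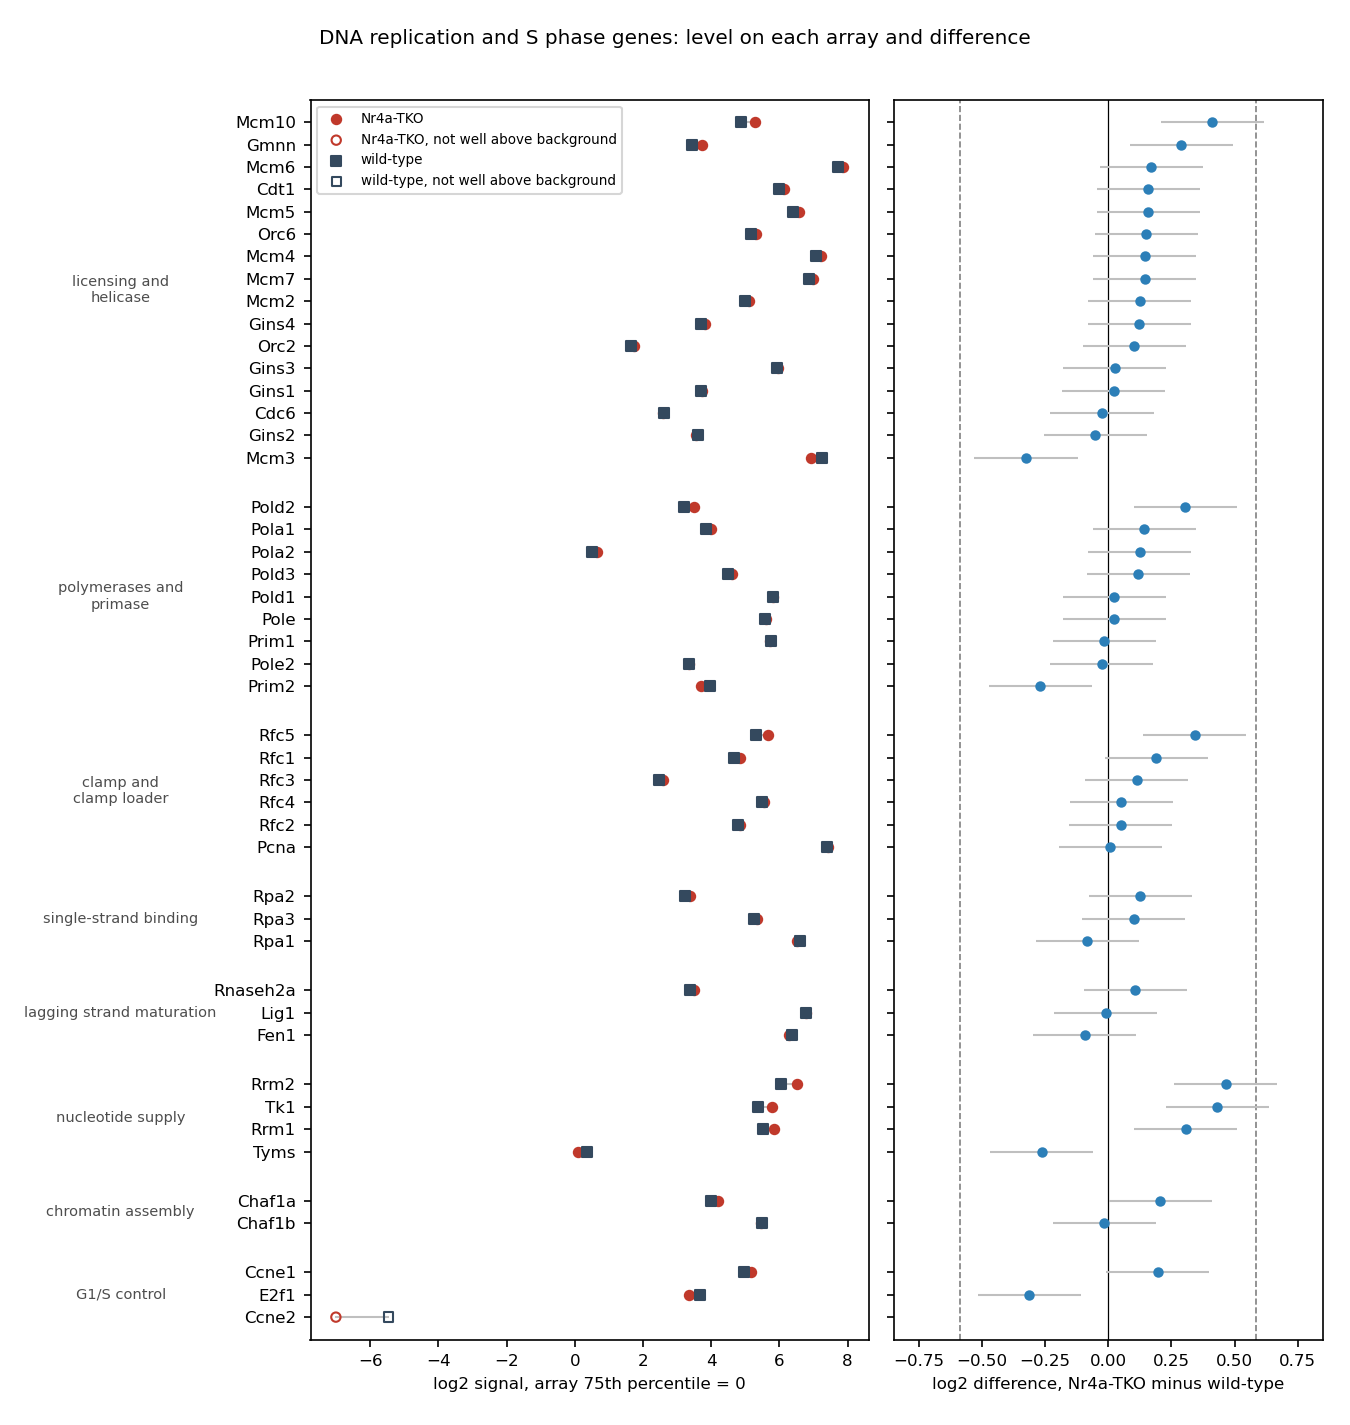
Left, the log2 signal of the brightest probe of each of the 46 genes on the Nr4a-TKO array (circles) and the wild-type array (squares), grouped by role, with open symbols where the probe was not well above background. Right, the log2 difference with the scanner's error of a difference as bars and 1.5-fold as dashed lines: at their brightest probes all 45 measured genes sit between -0.33 and 0.47, inside the dashed lines.

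Promoter sequence was not used to choose the genes. RefSeq promoter windows (GRCm38.p6, 250 bases before to 50 after a gene's start) were found for 37 of the 46 genes, in 43 windows. They were searched on both strands for the E2F letters TTTCCCGC, TTTCGCGC, TTTGCCGC and TTTGGCGC. A match stood in 13 of the 43 windows (30.2%), against 1 of 35 windows of mitosis and G2 genes (2.86%) and 2.26% of all 32851 windows. The genes with a match were Mcm3, Mcm5, Mcm6, Mcm7, Cdc6, Cdt1, Gins3, Lig1, Pola1, Pold1, Pold3, Pole2 and Rfc3. Their median difference was 0.11, with a range of -0.33 to 0.17. For the 24 measured genes with a window but no match it was 0.12, with a range of -0.31 to 0.47. At the brightest probes these groups overlapped over nearly the whole range of the first. The low end of the first, -0.33, is 1 Mcm3 probe, and the other Mcm3 probe, described below, gave 0.61. The next lowest gene of the first group was Pole2 at -0.03.

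The helicase genes Mcm6 and Mcm3 held 3 and 2 matches, and Ccnb2, a mitotic cyclin gene, is shown for contrast. Capitals mark the E2F letters in the first pair. In Mcm6 the first 2 matches overlap each other on opposite strands. In Ccnb2 capitals mark TTTGAA, the core letters of the CHR (cell cycle genes homology region) element.
Mcm6 promoter (chr1:128359656-128359955, minus strand): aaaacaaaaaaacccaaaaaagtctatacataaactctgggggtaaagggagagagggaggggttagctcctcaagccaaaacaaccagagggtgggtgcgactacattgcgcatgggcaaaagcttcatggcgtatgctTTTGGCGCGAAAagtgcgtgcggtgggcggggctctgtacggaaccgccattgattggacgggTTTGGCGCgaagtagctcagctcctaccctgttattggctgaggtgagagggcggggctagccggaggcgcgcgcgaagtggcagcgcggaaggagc
Mcm3 promoter (chr1:20820263-20820562, minus strand): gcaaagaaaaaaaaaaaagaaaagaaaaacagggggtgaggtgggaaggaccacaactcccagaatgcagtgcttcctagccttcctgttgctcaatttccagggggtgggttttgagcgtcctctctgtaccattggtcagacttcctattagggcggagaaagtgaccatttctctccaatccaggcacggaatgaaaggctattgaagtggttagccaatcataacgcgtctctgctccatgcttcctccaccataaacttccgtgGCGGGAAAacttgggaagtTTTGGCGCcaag
Ccnb2 promoter (chr9:70421505-70421804, minus strand): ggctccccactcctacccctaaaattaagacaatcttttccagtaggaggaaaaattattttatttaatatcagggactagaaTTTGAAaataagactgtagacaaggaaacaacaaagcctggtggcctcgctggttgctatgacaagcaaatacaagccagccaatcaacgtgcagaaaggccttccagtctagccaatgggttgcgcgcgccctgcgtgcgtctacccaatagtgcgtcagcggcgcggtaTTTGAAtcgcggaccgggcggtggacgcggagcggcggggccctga

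The letters TTTGAA stood in 4 of 43 windows of replication genes (9.30%), 25 of 35 windows of mitosis and G2 genes (71.4%) and 17.9% of all windows. CCAAT, the letters of the box bound by NF-Y, stood in 55.8%, 77.1% and 37.4% of them. These matches describe the windows only.

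**Figure D2:**
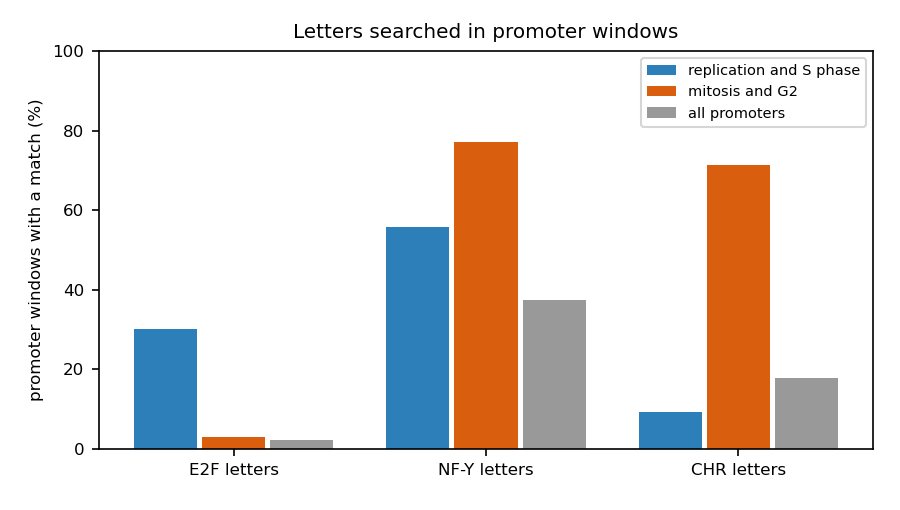
Percent of 300-base promoter windows that hold at least 1 match to each motif, for the 43 windows of replication and S phase genes, the 35 of mitosis and G2 genes and all 32851. E2F letters stand in 30.2% of the first and CHR letters in 71.4% of the second.

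Origin licensing and the helicase form the biggest role, with 16 genes, all measured, a median of 0.13 and a range of -0.33 to 0.41. The helicase ring genes other than Mcm3 lay close together. Mcm6 had a level of 7.88 in Nr4a-TKO cells and 7.71 in wild-type cells. Mcm5 had 6.56 in Nr4a-TKO cells and 6.41 in wild-type cells. The 5 ring genes other than Mcm3 differed by 0.12 to 0.17, all within the scanner's error of 0.20, and each had the opposite sign with spike-ins as the centre and with quantile or loess normalization, as had Mcm2 with housekeeping genes as the centre. Mcm4 stood at 7.21 in Nr4a-TKO cells and 7.07 in wild-type cells. Mcm2 stood at 5.11 in Nr4a-TKO cells and 4.99 in wild-type cells.

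Mcm10, which helps to activate the loaded helicase, had the greatest difference among licensing and helicase genes at their brightest probes, though the second Mcm3 probe differed by more. Its level was 5.29 in Nr4a-TKO cells and 4.88 in wild-type cells, 1.33-fold higher, with 1 sign in every setting. Gmnn encodes geminin, the inhibitor that binds Cdt1 and blocks new licensing. It was at 3.74 in Nr4a-TKO cells and 3.45 in wild-type cells, a difference of 0.29, with 0.05 at a second, dimmer probe. The brighter probe is annotated on the minus strand and the dimmer one on the plus strand. The dimmer one thus need not read the geminin transcript. The gene of geminin's target, Cdt1, was at 6.14 in Nr4a-TKO cells and 5.98 in wild-type cells, a difference of 0.16. That difference took the opposite sign with spike-ins as the centre and with quantile or loess normalization. The inhibitor gene showed the greater difference at its brighter probe, but both were under 1.5-fold and the gap was not tested.

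Cdc6, the ATPase that loads the helicase together with ORC, was at 2.58 in Nr4a-TKO cells and 2.61 in wild-type cells. Its second probe was lower by a greater amount, with a difference of -0.25. Orc2 and Orc6 encode subunits of the origin recognition complex and differed by 0.10 and 0.15, both with the opposite sign with spike-ins as the centre. The 4 GINS genes, whose products form a ring-shaped cofactor of the helicase, spanned only -0.05 to 0.12. Gins2 was at 3.55 in Nr4a-TKO cells and 3.61 in wild-type cells, and Gins4 was at 3.82 in Nr4a-TKO cells and 3.70 in wild-type cells. At the brightest probe, Mcm10, Gmnn and Mcm3 were the licensing and helicase genes past the scanner's error, and the second Cdc6 probe was past it too.

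Mcm3 needs its own account because its probes pointed opposite ways. The brighter probe, for transcript NM_008563 (mm9 chr1:20793136-20793195, minus strand), had 6.93 in Nr4a-TKO cells and 7.26 in wild-type cells, a difference of -0.33. The other, designed on AK088142 (mm9 chr1:20793119-20793178, minus strand), had 7.25 in Nr4a-TKO cells and 6.65 in wild-type cells, a difference of 0.61. The probes share 43 bases and differ at 1 of them, A14G, counted from 1 at the 5′ end of the 30-base stretches printed here. The NM_008563 probe holds the first base and the AK088142 probe the second, and capitals mark it.
Mcm3, NM_008563 probe: aagctttctttgcAattagactagtatgta
Mcm3, AK088142 probe: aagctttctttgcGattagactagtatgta

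The gap between those differences was 0.93. In a search added after seeing the data, 60 pairs of measured probes of 1 gene name overlapped by at least 40 bases with 1 differing base. Their median gap was 0.074 and the Mcm3 gap was the highest of the 60. Of 220 pairs that overlapped with no differing base, 4 (1.82%) had a gap as large. As the mean of both probes Mcm3 differed by 0.14. The direction given for Mcm3 above belongs to 1 probe, and none is given for the gene.

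Genes of the polymerases and primase numbered 9, all measured, with a median of 0.02 and a range of -0.27 to 0.31. Pold2, an accessory subunit of polymerase delta, was at 3.50 in Nr4a-TKO cells and 3.20 in wild-type cells. The catalytic subunit gene Pold1 was at 5.83 in Nr4a-TKO cells and 5.80 in wild-type cells, and the Pold3 difference was 0.12. Of these subunit genes only Pold2 passed the scanner's error, and whether the subunits differ from each other was not tested. For polymerase epsilon, which copies the leading strand, Pole was at 5.60 in Nr4a-TKO cells and 5.58 in wild-type cells, and Pole2 differed by -0.03. The other 2 Pole probes, both dimmer, gave 0.35 and -0.28.

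Polymerase alpha and primase make the short primers from which synthesis starts. Pola1 and Pola2 differed by 0.14 and 0.12. Pola1 lies on the X chromosome, where 871 measured gene names had a median difference of 0.09. The 2 measured XIST probes were 228-fold and 380-fold higher in Nr4a-TKO cells and Ddx3y, on the Y chromosome, was 3.63-fold lower. The labels give no sex, and its part in the values was not tested. Prim1, the catalytic primase subunit, was at 5.72 in Nr4a-TKO cells and 5.74 in wild-type cells. Prim2, the regulatory subunit, was at 3.69 in Nr4a-TKO cells and 3.96 in wild-type cells. A second, much dimmer Prim2 probe, at -0.14 in Nr4a-TKO cells and 0.26 in wild-type cells, gave -0.40. The difference of -0.27 at the brighter probe kept its direction in every setting. Those settings mostly moved values down, though, so few could turn a gene already lower.

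Pcna, the sliding clamp that tethers polymerases to DNA, was almost level, at 7.41 in Nr4a-TKO cells and 7.40 in wild-type cells. The clamp loader genes Rfc1 to Rfc5 had a median of 0.11 and a range of 0.05 to 0.34. Rfc5 led them, at 5.66 in Nr4a-TKO cells and 5.32 in wild-type cells, and was the only loader gene past the scanner's error and the only one whose sign held in every setting. Rfc1, the large subunit, was at 4.85 in Nr4a-TKO cells and 4.66 in wild-type cells. Rfc4 was at 5.54 in Nr4a-TKO cells and 5.49 in wild-type cells, while its second probe gave a difference of -0.10.

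Replication protein A coats exposed single strands. Its subunit genes Rpa1, Rpa2 and Rpa3 differed by -0.08, 0.13 and 0.10. Rpa1 was at 6.51 in Nr4a-TKO cells and 6.59 in wild-type cells, and its second probe gave 0.06. On the lagging strand Fen1 trims flaps, Lig1 seals nicks and ribonuclease H2 removes RNA. Fen1 was at 6.27 in Nr4a-TKO cells and 6.37 in wild-type cells, and Lig1 was at 6.78 in Nr4a-TKO cells and 6.79 in wild-type cells. Rnaseh2a, the catalytic subunit gene of that nuclease, was at 3.49 in Nr4a-TKO cells and 3.38 in wild-type cells. It had 5 probes, of which the brightest 3 gave 0.10 to 0.13 and the dimmer 2 gave 0.39 and -0.20. None of these genes passed the scanner's error at its brightest probe.

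Nucleotide supply was the role with the highest median, 0.37 over 4 genes, and 3 of the 4 were higher in every setting. Rrm2, the regulated small subunit of ribonucleotide reductase, was at 6.52 in Nr4a-TKO cells and 6.06 in wild-type cells. At 1.38-fold higher it had the greatest difference of the 45 genes at their brightest probes, below the 0.61 of the second Mcm3 probe, and stood at the 87.4th percentile of all measured gene names. Rrm1, the large subunit of the same enzyme, was at 5.84 in Nr4a-TKO cells and 5.53 in wild-type cells, 1.24-fold higher. Tk1, the thymidine kinase of the salvage pathway, was at 5.79 in Nr4a-TKO cells and 5.36 in wild-type cells. Its 3 probes gave differences of 0.26 to 0.47. Tyms, which makes thymidylate by the de novo route, went the other way, at 0.10 in Nr4a-TKO cells and 0.36 in wild-type cells. Its difference of -0.26 kept its sign in every setting, though those settings mostly moved values down.

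Chromatin assembly factor 1 places histones behind the fork. Chaf1a was at 4.19 in Nr4a-TKO cells and 3.99 in wild-type cells, and Chaf1b was at 5.46 in Nr4a-TKO cells and 5.48 in wild-type cells. At the G1/S boundary, E2f1, an activating E2F gene, was at 3.36 in Nr4a-TKO cells and 3.67 in wild-type cells, 1.24-fold lower. Its sign held in every setting, though those settings mostly moved values down. Ccne1, the gene of cyclin E1, was at 5.17 in Nr4a-TKO cells and 4.98 in wild-type cells, and its 2 probes gave differences of 0.19 and 0.20. Ccne2, the gene of cyclin E2, was not well above background on either array, at -7.01 in Nr4a-TKO cells and -5.47 in wild-type cells, so no fold is given. Its only probe is 85% A or T, more than 99.95% of the probes on the array, whose median is 56.7%.

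**Figure D3:**
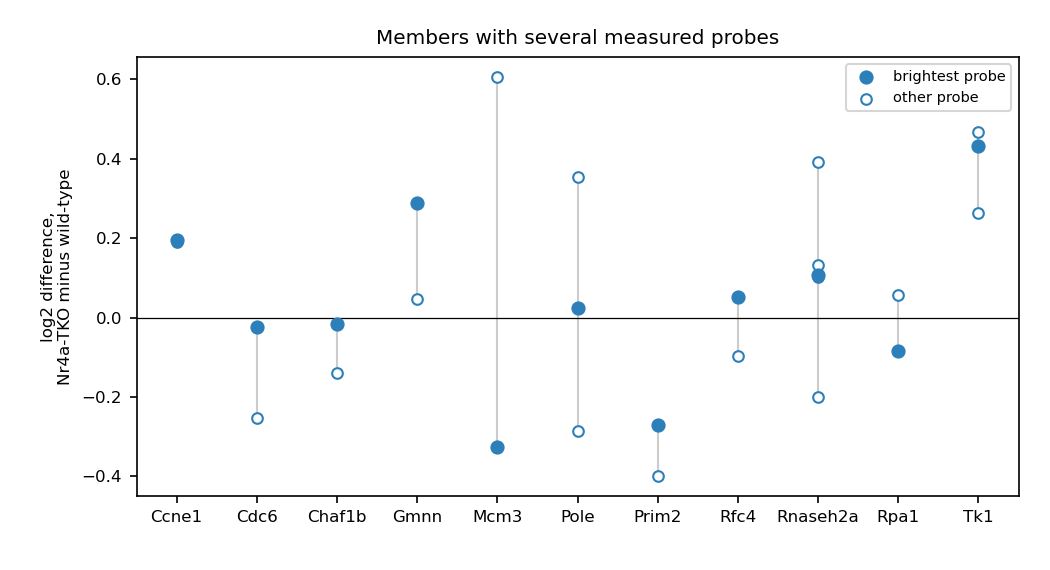
Log2 difference at every measured probe of the 11 replication genes that had several, with the brightest probe filled. The probes of Ccne1, Cdc6, Chaf1b, Gmnn, Prim2 and Tk1 lie on 1 side of 0, while those of Mcm3 span -0.33 to 0.61. The Gmnn probes are annotated on opposite strands.

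Across these 11 genes, 6 had all measured probes in 1 direction. That count includes Gmnn, whose probes are annotated on opposite strands. The gaps ran from 0.005 for Ccne1 to 0.93 for Mcm3, against a median gap of 0.25 over the 6792 gene names with several measured probes. Pole (0.64) and Rnaseh2a (0.59) also had wide gaps, in each case through probes dimmer than the first.

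Other genes of the pathway were read from a second list of 51 names. Of the 50 measured, 1 was past 1.5-fold in each direction, against the array's 8.37% higher and 7.37% lower, and the median was 0.19. Samhd1, an enzyme that breaks down deoxynucleotides, was the lower one, at 4.48 in Nr4a-TKO cells and 5.78 in wild-type cells, 2.47-fold lower, and the smallest difference among its 3 probes was -0.69. Dbf4, the activator of the kinase that fires origins, was the higher one, at 1.59 in Nr4a-TKO cells and 0.99 in wild-type cells. It was 1.51-fold higher and was named after its values were seen.

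Of 32 other regulators of the G1/S step 30 were measured, with a median of 0.02 and an SD of 0.44. Past 1.5-fold higher were 3 of the 30, where the array had 8.37%, and past 1.5-fold lower were 2, where it had 7.37%. These shares are near those of the array, whose SD was 0.56. Cdkn1a, the gene of the CDK inhibitor p21, was 2.51-fold higher, at 3.46 in Nr4a-TKO cells and 2.13 in wild-type cells, with 3 probes from 0.86 to 1.33. The rest of those genes, named after their values were seen, were Ccna2 (0.76), Cdkn2d (0.61), Myb (-0.86) and Ccnd2 (-0.68). Ccna2 encodes cyclin A2, which acts in S phase and G2. Ccnd2 encodes a D-type cyclin of G1. Ccnd1 was well above background only in wild-type cells and Cdkn2b in neither.

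Mitosis and G2 genes stood apart from the replication genes in these arrays. All 38 were measured and all 38 were higher in Nr4a-TKO cells at their brightest probe, with a median of 0.77 and a range of 0.19 to 1.53. With spike-ins as the centre 36 were higher, and with the dimmest probe of each gene 35 were. At least 1.5-fold higher were 26 of 38, where the array had 8.37%, and at least 2-fold higher were 11, where the array had 3.15%. With spike-ins as the centre the count at 1.5-fold was 16 and the median 0.49. Ccnb1, the gene of mitotic cyclin B1, was at 4.84 in Nr4a-TKO cells and 3.32 in wild-type cells, with 3 probes from 1.49 to 1.56. Ccnb2, whose promoter is printed above, was at 5.88 in Nr4a-TKO cells and 4.51 in wild-type cells. Nek2, a kinase of centrosome separation, was at 2.24 in Nr4a-TKO cells and 1.04 in wild-type cells. Cdc20, an activator of the anaphase-promoting complex, was 2.46-fold higher. Aurka, a spindle kinase, was 2.32-fold higher, and Cenpf, a kinetochore protein gene, was 2.19-fold higher.

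The ranges of the replication genes and the mitotic genes overlapped. Of the 38 mitotic genes 31 lay above Rrm2, the highest replication gene at the brightest probes. With the other Mcm3 probe, a choice added after seeing the data, Mcm3 was the highest and 25 lay above it. Of the mitotic genes 0 lay below the replication median of 0.11. Of the 45 replication genes 9 lay above Ndc80, the lowest mitotic gene at 0.19 (10 with the other Mcm3 probe), and 0 lay above the mitotic median with either probe. The medians were 0.65 apart, and between 0.56 and 0.74 apart under the 15 alternatives. Alternatives that only shift a whole array, such as spike-ins or housekeeping genes as the centre, cannot change the gap between the medians. This gap was not tested, since there is 1 array per genotype, and both lists were chosen with earlier results of these data known.

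**Figure D4:**
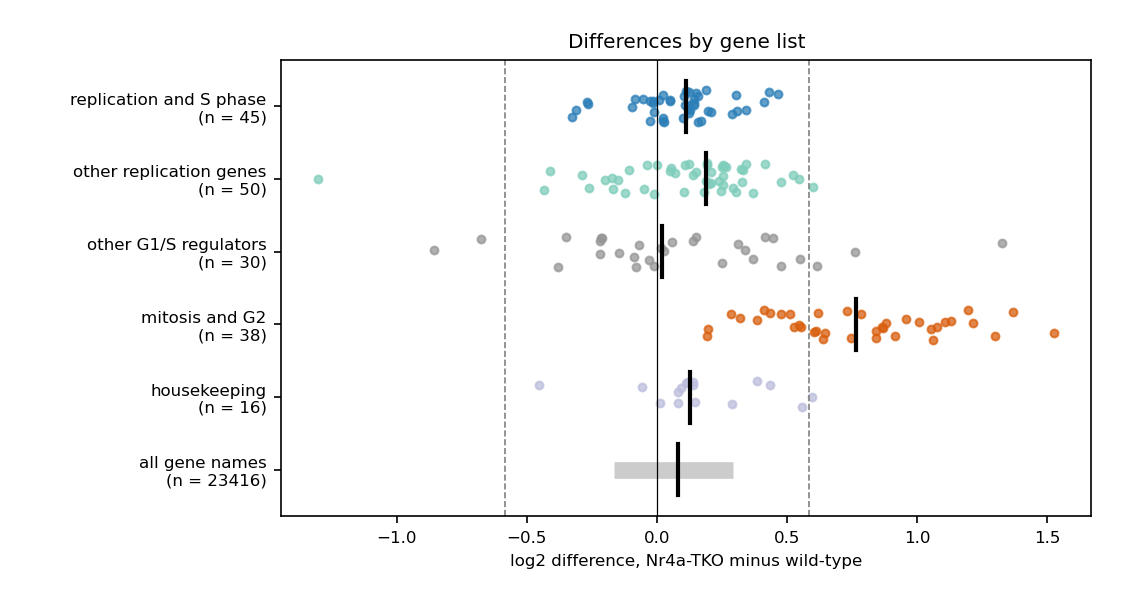
Log2 differences of measured genes in 5 lists, with a black bar at each median and a grey bar for the middle 50% of all 23416 gene names; dashed lines mark 1.5-fold. The replication and S phase genes have a median of 0.11 and stay inside the dashed lines, while the mitosis and G2 genes have a median of 0.77.

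On the arrays as a whole, 63.9% of probes were well above background for Nr4a-TKO and 66.0% for wild-type, and 0 spots were saturated. Spike-in controls differed by 0.27 after scaling and the 16 housekeeping genes by a median of 0.13, both more than the replication median of 0.11. Nr4a3 was 7.04-fold lower in Nr4a-TKO cells, while Nr4a1 differed by 0.06 and Nr4a2 was 2.54-fold higher, so the genotype stands as a label. All 10 Treg and T cell markers were measured on both arrays, with Foxp3 17.2-fold, Ikzf2 3.07-fold and Ctla4 2.29-fold lower in Nr4a-TKO cells. Their mean level was 4.39 in Nr4a-TKO cells and 5.35 in wild-type cells. Of 8 markers of immature thymocytes, which divide rapidly, 6 were measured, with a mean of -1.97 in Nr4a-TKO cells and -1.81 in wild-type cells and the greatest differences at Cd1d1 (-0.95), Cd8b1 (-0.64) and Arpp21 (0.56). The recombinase genes Rag1 and Rag2 were above background on neither array. B and plasma cell markers (5 measured of 9) averaged -2.11 in Nr4a-TKO cells and -2.81 in wild-type cells, led by Sdc1 (1.66), Cd79b (1.33) and Pax5 (0.30), while Ms4a1 and Ebf1 were above background on neither array and Blk in wild-type cells only. CD8 and NK cell markers (7 of 10) averaged -1.44 in Nr4a-TKO cells and -1.65 in wild-type cells, led by Gzma (1.78), Eomes (1.31) and Nkg7 (-0.78), and Klrd1 was at least 6.25-fold lower. Myeloid markers (6 of 11) averaged -1.13 in Nr4a-TKO cells and -1.20 in wild-type cells, led by Mpo (-2.96), Ly6g (2.75) and Cd68 (0.56). S100a8, S100a9 and Lyz2 were lower by at least 2.61-fold, 3.02-fold and 1.63-fold. Erythroid and platelet markers (4 of 10) averaged -0.79 in Nr4a-TKO cells and -1.34 in wild-type cells, led by Epor (1.61), Klf1 (0.58) and Itga2b (0.07), and Hbb-b1 and Hba-a1 were lower by at least 3.01-fold and 1.15-fold. The part of other cells in the values above was not tested, and fewer cells of a type cannot be told apart from less RNA per cell.

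**Figure D5:**
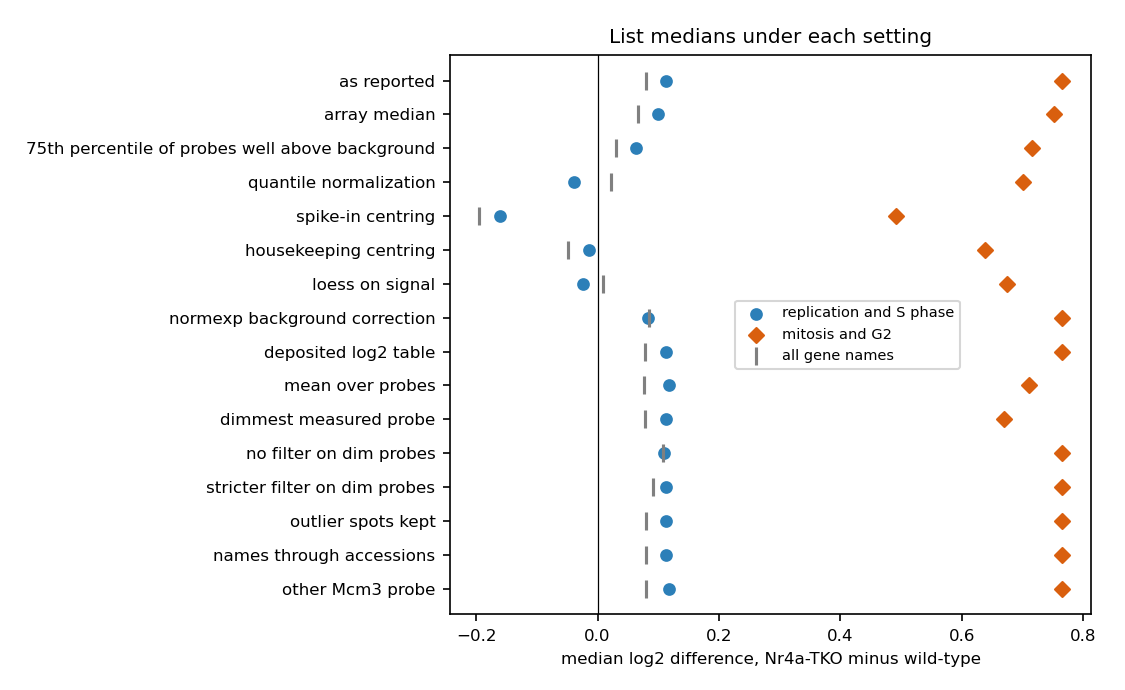
Median log2 difference of the replication and S phase genes (circles), the mitosis and G2 genes (diamonds) and all gene names (bars) under the reported setting and 15 alternatives. The replication median runs from -0.16 to 0.12 and the mitotic median from 0.49 to 0.77.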

How the data were processed

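The genotype label placed 1 sample in each group. The deposited intensity of every spot came out of the scanner software, Agilent Feature Extraction 10.10.1.1, after spatial and multiplicative detrending and with surrogates for dim spots, per the file headers. The arrays shared 1 slide and 1 scan time. They are annotated on mm9, per the file headers. The deposited log2 table equalled the log2 intensity less 1 constant per array (SD 0.00029). Its column medians were -3.53 for Nr4a-TKO and -3.54 for wild-type. Its 75th percentiles were 0.009 for Nr4a-TKO and 0.011 for wild-type, both near the 0 used here. As an alternative setting that table thus nearly repeats the reported scaling. The rule that set its constants is not known beyond these values.

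Control spots (3671 of 62976) and outlier spots (117 for Nr4a-TKO, 156 for wild-type) were left out. Spots of a probe were averaged on the log2 scale, with the 75th percentile of each array as 0. The brightest probe stood for a gene, and measured means well above background for both genotypes. A probe above background on 1 array gave a bound against the higher of the dim array's lowest well-above signal and its own signal. The number of arrays limits the precision, and the slide could not be a block. Named genes were the members, with values per array where probes differed in direction, up to 6 genes past 2-fold in each other pathway list, and in each marker list the 3 greatest differences and any marker above background on 1 array. Further per-array values of members were chosen after seeing them. Members and lists were chosen with earlier results of these data known. The counting step recovered known changes on simulated data, made from the wild-type array with changes past 2-fold. That run checks the counting only, not changes of the size described here. Alternatives changed the centring, normalization, background, filter and probe rule. Software comprised limma 3.58.1 under R 4.3.3, and numpy 2.4.6, pandas 2.3.3 and matplotlib 3.10.9 under Python 3.11.15.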

Additional observations from a re-analysis of the deposited data

How the results depend on the processing

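The number of replication genes at least 2-fold different stayed at 0 in each direction, apart from 1 lower without the filter on dim probes, which admits Ccne2 by construction and also gives 1 at least 1.5-fold lower. At 1.5-fold, 1 was higher with the dimmest measured probe or the other Mcm3 probe, and 2 were lower with spike-ins as the centre. The median of 0.11 became -0.039 with quantile normalization, -0.16 with spike-ins as the centre, -0.014 with housekeeping genes as the centre and -0.024 with loess on signal (span 0.3), and the genes higher by any amount became 18, 7, 17 and 18 of 45. Those centrings shift every gene, by -0.27 for spike-ins and -0.13 for housekeeping genes. Relative to all gene names the median became -0.061 with quantile normalization, -0.033 with loess and -0.0020 with normexp (offset 50), against 0.03 as reported, and the cause was not tested. The mitotic median became 0.49 with spike-ins, 0.64 with housekeeping genes, 0.67 with loess and 0.67 with the dimmest probe, and 16 mitotic genes were at least 1.5-fold higher with spike-ins. The gap between the medians was 0.56 with the dimmest probe and 0.74 with quantile normalization. It stays the same by construction where only the centre changes. Of 675 values of single replication genes under the alternatives, 492 moved by less than the spread between spots. Several alternatives, such as other filters, other names or the other Mcm3 probe, leave nearly all of these values as they were. The count is therefore no measure of stability. Naming probes through accessions changed 0 names of the set. The other Mcm3 probe was chosen as a setting after seeing the data. No paired analysis was possible because each genotype has 1 array, and for the same reason no replicate could be left out.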
